A study of Bos taurus with 6 samples.

Results

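The genes described here are 49 genes of the actin cytoskeleton and of contraction, listed by symbol: actins, filament crosslinkers and adhesion proteins, thin filament proteins, myosin II, turnover factors, signalling proteins, the SRF transcription factor with its coactivators, and intermediate filament proteins. TRIOBP was chosen by its rise with the agomir in these same libraries, so its values are given as a description without a test, and counts are made over the other genes. Of the 49 symbols, 47 had a row among the 23475 genes measured, whereas MRTFA and MRTFB had none under these symbols. Averaged over the 6 libraries, 45 of the 47 reached 0.5 FPKM, the minimum set for testing, and MYH11 and DES were below it. That left 44 genes besides TRIOBP to be compared.

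Preadipocytes from the subcutaneous fat of calves (Bos taurus), which the labels call adipocytes, received by transfection either the bta-miR-484 agomir (3 samples) or its negative control, the agomir NC (3 samples), and RNA was collected 48 h later for sequencing. An agomir is a chemically stabilised RNA duplex that mimics a miRNA, and the comparison asks which mRNAs differ when bta-miR-484 is raised. No genetic change or other agent was stated for either group, and the level of bta-miR-484 itself was not analysed here. It is not stated whether the samples within a group were separate animals or separate dishes. The p-values therefore set each difference only against the spread seen between these samples, which may be technical.

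Actin filaments assemble from actin monomers, are bundled and anchored to the membrane at adhesions, and slide when myosin II, switched on by phosphorylation of its regulatory light chains, pulls on them. The ROCK kinases promote this contraction, and the pool of free actin monomers controls the transcription factor SRF through the MRTF coactivators. In fat precursor cells, stress fibres are prominent while the cells are spread, and they are taken down as the cells round up and store lipid.

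The labelled cell type was checked against marker genes. Of 15 preadipocyte and mesenchymal genes, COL3A1 was the most abundant at a mean of 7623 FPKM, and PDGFRA was at 162 to 172 FPKM. ICAM1, DPP4 and ZNF423 averaged 3.81, 5.35 and 5.65 FPKM. Of the 15, 3 averaged under 0.5 FPKM: CD34 at 0.481 FPKM, PI16 at 0.34 FPKM and DLK1, listed at 0 in all 6 libraries. This list was therefore mixed. Of 14 genes of mature adipocytes, LPL was the most abundant at a mean of 3.73 FPKM, the adipokine gene ADIPOQ lay between 0.0763 and 0.197 FPKM, and the leptin gene LEP did not exceed 0.0368 FPKM. Of the 14, 5 averaged under 0.5 FPKM (ADIPOQ, LEP, PLIN4, CIDEC and DGAT2) and 9 lay above it, among them PNPLA2 at a mean of 3.72 FPKM, PPARG at 3.55 FPKM, GPD1 at 2.95 FPKM, FABP4 at 2.39 FPKM, CIDEA at 1.27 FPKM and PLIN1 at 1.23 FPKM, so the markers of the labelled cell type were mixed, and none exceeded 4.83 FPKM in any library. The 14 genes summed to 19.3, 20.1 and 21.7 FPKM with the agomir and to 20.8, 20.4 and 19.8 FPKM with the agomir NC. Within these lists, NT5E (−0.25), ICAM1 (−0.29), DCN (−0.12) and FABP4 (−0.49) had negative and PPARG (0.23) a positive log2 fold change at an unadjusted p under 0.05 in limma, and their part in the results below was not tested.

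Several listed genes also mark muscle cells, so those markers were read in each library. Of 12 smooth muscle markers, HSPB6 was the most abundant at a mean of 85.6 FPKM, and their sum was 177, 171 and 171 FPKM with the agomir and 172, 171 and 179 FPKM with the agomir NC. Of these 12 genes, 5 averaged under 0.5 FPKM: KCNMB1 did not exceed 0.0491 FPKM, PLN 0.0922 FPKM, MYH11 0.433 FPKM, DES 0.4604 FPKM and PPP1R14A 0.617 FPKM. The other 7 were above that level, among them ACTG2 at a mean of 41.2 FPKM, SMTN at 22.5 FPKM, CNN1 at 14.99 FPKM and LMOD1 at 6.103 FPKM, so the markers of this cell type were mixed. SMTN (log2 fold change −0.12, unadjusted p under 0.05 in limma) and MYOCD (−0.25, unadjusted p above 0.05) were lower with the agomir without overlap, and the part of these differences in the results was not tested. The skeletal muscle genes MYOD1, MYOG and CKM were listed at 0 in all 6 libraries, and the most abundant of that list was TNNT3 at a mean of 2.21 FPKM. The pericyte list of 9 genes was led by PDGFRB, which mesenchymal cells also express, at a mean of 133 FPKM. Also above 0.5 FPKM were CSPG4 at a mean of 5.13 FPKM, NOTCH3 at 3.16 FPKM and ABCC9 at 2.05 FPKM. The other 5 averaged under 0.5 FPKM, among them RGS5, at most 0.0816 FPKM, and COX4I2, listed at 0, so these markers were mixed. Endothelial PECAM1 and leukocyte PTPRC did not exceed 0.147 and 0.119 FPKM, and those lists were led by VWF at 3.39 and CD14 at 6.27 FPKM. The list sums overlapped between the groups, except that 7 epithelial and mesothelial markers, led by UPK3B at 0.835 FPKM and with KRT5, KRT14 and LRRN4 listed at 0, summed to 1.85, 1.797 and 1.46 FPKM with the agomir and to 1.91, 1.88 and 2.22 FPKM with the agomir NC, and the part of this small difference in the results was not tested.

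FPKM counts fragments relative to transcript length and to all mapped fragments of a library, so levels can be compared between genes. It holds no read numbers, which leaves the sequencing depth unknown and counting error out of reach. The 47 genes together made up 4.13, 4.24 and 4.14% of the summed FPKM in the agomir libraries and 4.25, 4.22 and 4.23% in the agomir NC libraries. Their levels spanned a wide range, from VIM at a mean of 5404 FPKM over the 6 libraries down to LIMK1 at 5.1998 FPKM among the genes above the filter. Library 3 of the agomir NC had the highest FPKM sum (379361, against 365977 to 369489 in the other 5), the highest value of 16 of the 44 genes (against 19.45% of all genes tested) and the lowest value of 11 (against 18.92%), and library 2 of the agomir NC had the lowest value of 12 (against 21.44%).

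**Figure D1:**
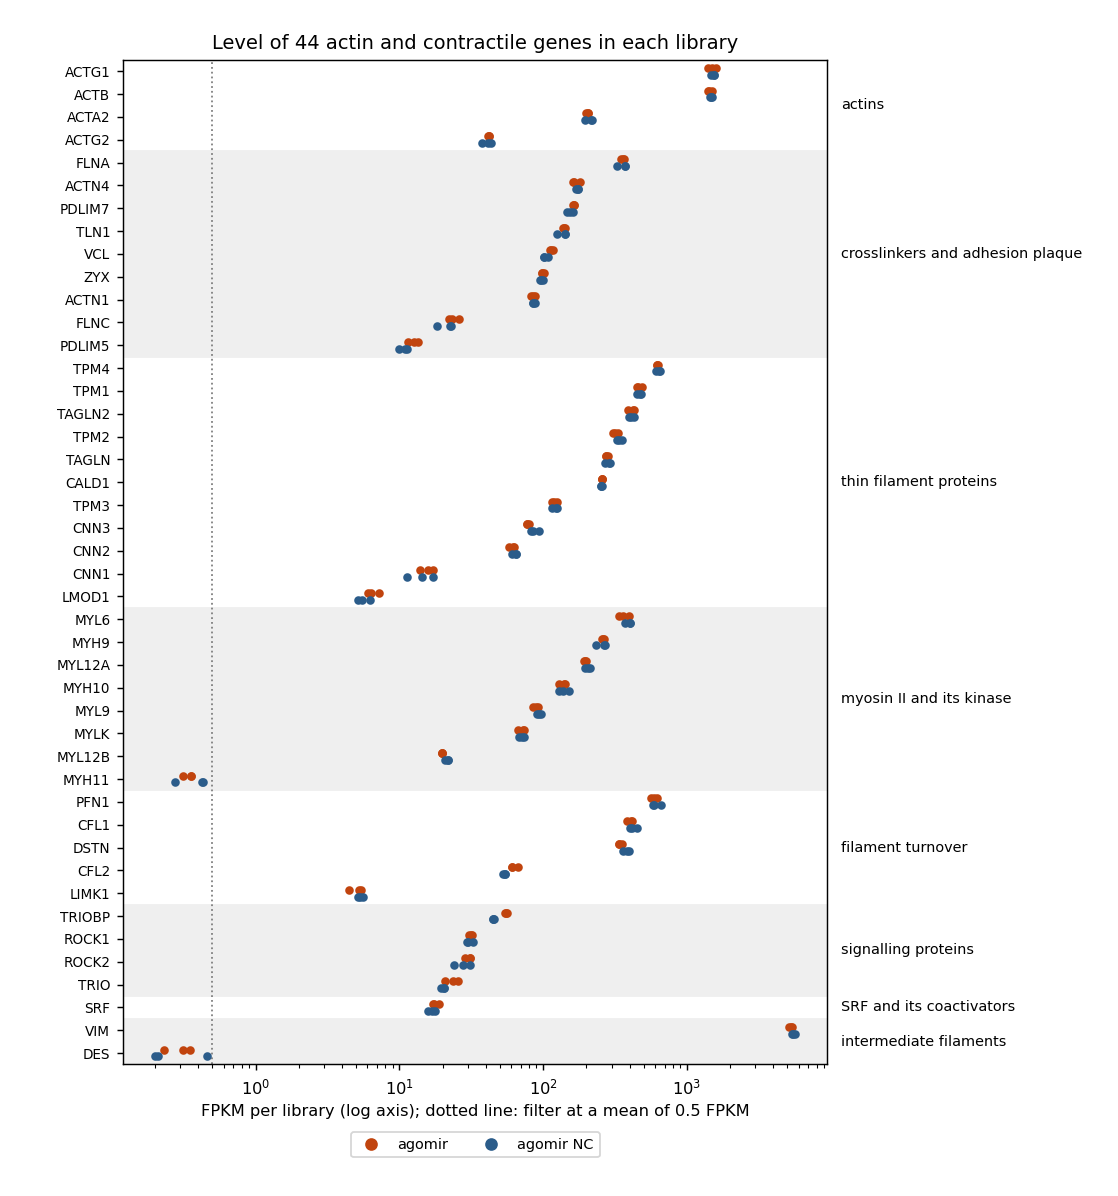
FPKM of 44 of the 47 genes with a row, in each library, on a log axis, grouped by role; each point is 1 library, agomir in orange and agomir NC in blue. VIM, ACTG1 and ACTB were the most abundant, with means of 5404, 1511 and 1456 FPKM, and MYH11 and DES lay below the dotted line at 0.5 FPKM.

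None of the 44 genes passed 0.05 after Benjamini-Hochberg adjustment of the limma p-values over all 12422 genes tested, where 1 gene did (0.00805%), and the lowest adjusted p among the 44 was 0.2235, for CFL2. At an unadjusted p under 0.05, 4 of the 44 were higher with the agomir (VCL, PDLIM5, CFL2 and TRIO, 9.09%, against 6.63% of all genes tested) and 3 were lower (CNN3, MYL12B and DSTN, 6.82%, against 4.31%). The agomir libraries all lay above the agomir NC libraries in 7 of the 44 (15.9%, against 10.9% of all genes) and all lay below them in 3 (6.82%, against 6.36%). Besides the 4 named, the genes that were higher without overlap included PDLIM7 and CALD1, and the 3 that were lower without overlap were the 3 already named. As the list was drawn up with its most changed gene known, nothing is read from these shares.

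The differences were small. Log2 fold changes, agomir minus agomir NC on the log2(FPKM + 0.5) scale, which understates changes of genes at low FPKM, ran from −0.15 for CNN3 to 0.22 for CFL2. Their size was under 0.1 in 30 of the 44 genes (68.2%, against 61.8% of all genes tested). The median was −0.019, with 20 positive and 24 negative values, against a median of 0.013 over all genes. The numbers of genes at an unadjusted p under 0.05, 4 higher and 3 lower as given above, moved with the scaling of the libraries: 7 of the 44 were higher and 2 lower after rescaling to TPM, where 8.12% of all genes were higher and 3.42% lower, 5 and 2 after quantile normalization (5.6 and 5.06% of all genes), and 4 and 5 after median-ratio scaling (5.42 and 5.54%). Without agomir NC library 3, 4 genes were higher at that p (VCL, PDLIM7, CFL2 and TRIO) and 1, DSTN, was lower, against 5.93 and 3.08% of all genes. In RNA from whole cultures, fewer cells of a type and less RNA per cell cannot be told apart.

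**Figure D2:**
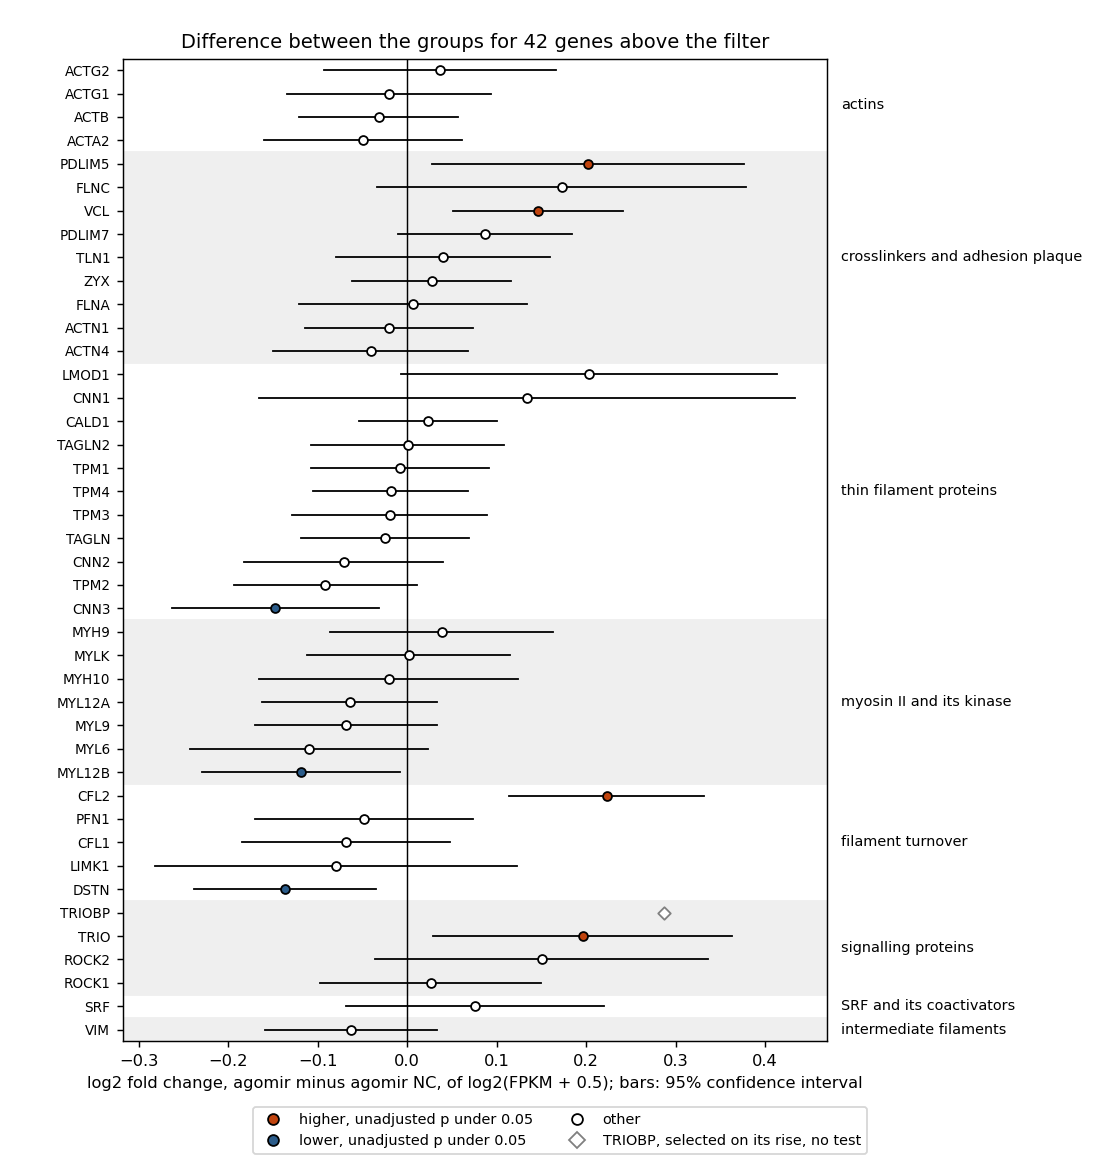
Log2 fold change (agomir minus agomir NC) of 42 of the 45 genes above the filter, grouped by role, with 95% confidence intervals from limma; filled points had an unadjusted p under 0.05, and the hollow diamond is TRIOBP, selected on its rise and not tested. The other genes lay between −0.15 (CNN3) and 0.22 (CFL2).

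ACTG1 and ACTB, the cytoplasmic actins that every cell uses, were the most abundant of the actins. ACTG1 was at 1499.6, 1593 and 1409.9 FPKM across the agomir libraries against 1552, 1466 and 1544 FPKM in the agomir NC libraries. The groups overlapped, the highest and the lowest of the 6 values were both agomir libraries, and the log2 fold change of −0.02 (limma with Benjamini-Hochberg adjustment, standard error 0.0509, adjusted p = 0.9203) turned positive under quantile normalization. ACTB ranged from 1414 to 1505 FPKM over the 6 libraries. ACTA2, the smooth muscle alpha-actin that is also made by contractile fibroblasts, was at 207, 205 and 197 FPKM across the agomir libraries against 219.5, 196 and 215 FPKM in the agomir NC libraries. These values overlapped as well, and the log2 fold change was −0.05 (limma with Benjamini-Hochberg adjustment, standard error 0.0492, adjusted p = 0.7588). ACTG2, the gamma-actin of visceral smooth muscle, was lower, from 37.4 to 43.3 FPKM. Within the summed FPKM of the 4 actins, ACTG1 made up 47.1 ± 0.9897% with the agomir and 46.9 ± 0.452% with the agomir NC (SD, n = 3 each), and ACTA2 6.37 ± 0.198% and 6.48 ± 0.2405%. Both shares overlapped between the groups. The actins are nearly identical in sequence, as are MYL12A and MYL12B, so reads may have been divided between them and the split within such families is uncertain.

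Among the 9 crosslinkers and adhesion proteins, VCL and PDLIM5 were higher with the agomir at an unadjusted p under 0.05 and no gene was lower. VCL encodes vinculin, which ties talin at integrin adhesions to actin filaments, and was at 112, 118 and 114 FPKM across the agomir libraries against 107, 102 and 101 FPKM in the agomir NC libraries. Its lowest agomir value was above its highest agomir NC value, and the log2 fold change was 0.15 (limma with Benjamini-Hochberg adjustment, standard error 0.0422, adjusted p = 0.3098). In all 16 other settings its unadjusted p was under 0.05. PDLIM5, a PDZ and LIM domain scaffold that binds alpha-actinin, was at 11.4, 13.5 and 12.6 FPKM across the agomir libraries against 11.4, 10.98 and 10.02 FPKM in the agomir NC libraries. The groups were separated by a narrow gap, since agomir library 1 and agomir NC library 1 both rounded to 11.4 FPKM. The log2 fold change was 0.20 (limma with Benjamini-Hochberg adjustment, standard error 0.07795, adjusted p = 0.4013), and its unadjusted p exceeded 0.05 when agomir library 2, agomir library 3 or agomir NC library 3 was left out.

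FLNA, the filamin that crosslinks filaments into nets, was the most abundant of these genes and was at 348, 364 and 362 FPKM across the agomir libraries against 374, 373 and 324 FPKM in the agomir NC libraries. All 3 agomir values lay within the range of the agomir NC values, with a log2 fold change of 0.0062 (limma with Benjamini-Hochberg adjustment, standard error 0.0569, adjusted p = 0.9816) whose sign depended on the scaling, as it was −0.009 after median-ratio scaling. Its muscle-type paralog FLNC was at 23.8 ± 1.94 FPKM across the agomir libraries against 21.1 ± 2.59 FPKM in the agomir NC libraries (SD, n = 3 each), with overlapping groups. FLNC made up 6.23 ± 0.436% of the summed filamin FPKM with the agomir and 5.57 ± 0.245% with the agomir NC (SD, n = 3 each), and these shares, which are given as a description, did not overlap. PDLIM7, a scaffold of the same family as PDLIM5, was at 164 ± 1.27 FPKM across the agomir libraries against 154 ± 7.22 FPKM in the agomir NC libraries (SD, n = 3 each). Its groups did not overlap, but the log2 fold change of 0.087 (limma with Benjamini-Hochberg adjustment, standard error 0.0434, adjusted p = 0.5082) did not pass an unadjusted p of 0.05. TLN1, which links integrins to vinculin, ranged from 125 to 142 FPKM and ZYX, a LIM protein recruited to strained stress fibres, from 95.5 to 101 FPKM. The alpha-actinins ACTN4 and ACTN1, which bundle antiparallel filaments, ranged from 162 to 181 FPKM and from 82.02 to 87.7 FPKM. In these 4 genes the groups overlapped, and the log2 fold changes were 0.04, 0.027, −0.041 and −0.021 in the order named.

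Of the 11 thin filament proteins, CNN3 was lower with the agomir at an unadjusted p under 0.05 and no gene was higher. CNN3 encodes the acidic calponin, which binds along actin filaments in many non-muscle cells, and was at 77.8, 77.5 and 79.6 FPKM across the agomir libraries against 84.5, 82.7 and 93.5 FPKM in the agomir NC libraries. The agomir values lay close together and below all agomir NC values, of which library 3 was the highest. The log2 fold change was −0.15 (limma with Benjamini-Hochberg adjustment, standard error 0.0516, adjusted p = 0.3696), and without agomir NC library 3 it was −0.094 with an unadjusted p above 0.05. Without the variance trend the log2 fold change was again −0.15, and the unadjusted p was above 0.05. CNN2, the calponin found in smooth muscle and blood cells alike, ranged from 57.8 to 65.2 FPKM and CNN1, the smooth muscle calponin, from 11.4 to 17.3 FPKM. CNN1 had the largest standard error of the 44 genes (0.134, log2 fold change 0.13), and both genes overlapped between the groups. Summed over the 3 calponins, the agomir libraries held 158, 149 and 157 FPKM and the agomir NC libraries 163, 159 and 173 FPKM. These sums did not overlap, and CNN3, which made up most of them with CNN2, is already counted above.

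TPM4 was the most abundant tropomyosin, the coiled coil that lies along the filament and governs access of myosin and cofilin, and was at 617, 634 and 623 FPKM across the agomir libraries against 647, 610.0 and 641 FPKM in the agomir NC libraries. The groups overlapped, and the log2 fold change of −0.018 (limma with Benjamini-Hochberg adjustment, standard error 0.0387, adjusted p = 0.9057) turned positive under quantile normalization. Within the 4 tropomyosins, TPM4 made up 40.9 ± 0.441% of their summed FPKM with the agomir and 40.6 ± 0.282% with the agomir NC, TPM1 30.5 ± 0.716% and 29.97 ± 0.0847%, TPM2 20.8 ± 0.736% and 21.7 ± 0.314%, and TPM3 7.85 ± 0.131% and 7.79 ± 0.118% (SD, n = 3 each). All 4 shares overlapped between the groups. LMOD1, a leiomodin that nucleates filaments in smooth muscle, was the least abundant of the thin filament genes and was at 6.35, 7.26 and 6.096 FPKM across the agomir libraries against 6.21, 5.53 and 5.17 FPKM in the agomir NC libraries. Agomir library 3 lay below agomir NC library 1, so the groups overlapped, and the log2 fold change of 0.20 (limma with Benjamini-Hochberg adjustment, standard error 0.0937, adjusted p = 0.4671) was the largest of this group in size without passing an unadjusted p of 0.05. CALD1, encoding caldesmon, which restrains actomyosin, was at 258 ± 0.519 FPKM across the agomir libraries against 254 ± 1.94 FPKM in the agomir NC libraries (SD, n = 3 each). Its groups did not overlap although they differed by a log2 fold change of 0.023 (limma with Benjamini-Hochberg adjustment, standard error 0.0345, adjusted p = 0.8487). The transgelins, small calponin-like bundling proteins, ranged from 391 to 432 FPKM for TAGLN2 and from 271 to 294 FPKM for TAGLN, a marker of smooth muscle and of contractile fibroblasts. Both overlapped between the groups, with log2 fold changes of 0.00072 and −0.025 whose signs changed with the scaling.

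Among the 7 tested genes of myosin II and its kinase, MYL12B was lower with the agomir at an unadjusted p under 0.05 and no gene was higher. MYL12B encodes a regulatory light chain of non-muscle myosin II and was at 19.7, 19.8 and 19.96 FPKM across the agomir libraries against 20.9, 21.9 and 21.9 FPKM in the agomir NC libraries. All agomir values were below all agomir NC values, with a log2 fold change of −0.12 (limma with Benjamini-Hochberg adjustment, standard error 0.0494, adjusted p = 0.4271). Its unadjusted p was under 0.05 in 8 of 16 other settings. The related light chains MYL12A and MYL9 ranged from 192 to 214 FPKM and from 85.8 to 96.2 FPKM, with overlapping groups and log2 fold changes of −0.064 and −0.068. Added together, the 3 regulatory light chains came to 305, 305 and 306 FPKM with the agomir and to 322, 308 and 332 FPKM with the agomir NC. These sums did not overlap, by a narrow gap.

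MYL6, the essential light chain that stabilises the myosin lever arm, was the most abundant of the myosin genes and was at 394, 337 and 362 FPKM across the agomir libraries against 401, 373 and 405 FPKM in the agomir NC libraries. Agomir library 1 lay within the agomir NC values and the other agomir libraries below them, so the groups overlapped, with a log2 fold change of −0.11 (limma with Benjamini-Hochberg adjustment, standard error 0.0591, adjusted p = 0.5389). That value was −0.17 without agomir library 1, −0.055 without agomir library 2 and −0.033 under quantile normalization. The heavy chains MYH9 and MYH10, the motors of non-muscle myosin IIA and IIB, ranged from 232 to 269.9 FPKM and from 128 to 152 FPKM. MYH9 made up 65.6 ± 0.91003% of the summed heavy chain FPKM with the agomir and 64.7 ± 1.001% with the agomir NC (SD, n = 3 each), and the groups overlapped. The smooth muscle heavy chain MYH11 was at 0.357, 0.354 and 0.3105 FPKM across the agomir libraries against 0.424, 0.433 and 0.277 FPKM in the agomir NC libraries, below the filter and overlapping, and an exact permutation test, two-sided, gave p = 0.6, where 3 against 3 libraries cannot go below 0.1. MYLK, the kinase that phosphorylates the regulatory light chains, was at 71.1 ± 3.34 FPKM across the agomir libraries against 70.98 ± 2.94 FPKM in the agomir NC libraries (SD, n = 3 each), and its log2 fold change of 0.0017 changed sign under median-ratio scaling.

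The filament turnover genes held the lowest p-value of the 44 genes, TRIOBP being left out, and 1 gene on each side. CFL2 encodes the muscle-type cofilin, which severs aged filaments and frees monomers, and was at 61.2, 66.7 and 60.97 FPKM across the agomir libraries against 54.8, 52.6 and 54.1 FPKM in the agomir NC libraries. Every agomir value was above every agomir NC value, and library 2 was the highest within the agomir group. The log2 fold change was 0.22 (limma with Benjamini-Hochberg adjustment, standard error 0.0488, adjusted p = 0.2235). Its unadjusted p was under 0.05 in all 16 other settings and its adjusted p was above 0.05 in all of them, the lowest being 0.1682 after rescaling to TPM. DSTN, which encodes destrin, also called actin depolymerising factor, a close relative of the cofilins, was at 338, 340.2 and 353 FPKM across the agomir libraries against 382, 357 and 395 FPKM in the agomir NC libraries. Here the agomir values were below all agomir NC values, and the log2 fold change was −0.14 (limma with Benjamini-Hochberg adjustment, standard error 0.0455, adjusted p = 0.3538). Its unadjusted p rose above 0.05 under quantile normalization, without the variance trend and without agomir library 1. CFL1, the cofilin of non-muscle cells, was at 403 ± 16.7 FPKM across the agomir libraries against 423 ± 25.3 FPKM in the agomir NC libraries (SD, n = 3 each) and overlapped between the groups.

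Taken as shares of the summed FPKM of these 3 depolymerising factors, CFL2 made up 7.49, 8.43 and 7.44% with the agomir and 6.42, 6.48 and 6.02% with the agomir NC. DSTN made up 41.4, 42.97 and 43.03% with the agomir and 44.8, 44.03 and 43.9% with the agomir NC. The CFL2 share was higher and the DSTN share lower with the agomir without overlap, while the sum of the 3 genes overlapped, at 809 ± 15.4 and 855 ± 44.4 FPKM (SD, n = 3 each). A share does not depend on a scaling factor applied to a library, and these shares follow from the 2 genes already named, so they are no separate test. PFN1, the profilin that loads actin monomers with ATP and delivers them to growing ends, was the most abundant turnover gene and was at 616, 562 and 594 FPKM across the agomir libraries against 594, 583 and 656 FPKM in the agomir NC libraries. The groups overlapped, the lowest value being agomir library 2 and the highest agomir NC library 3, with a log2 fold change of −0.048 (limma with Benjamini-Hochberg adjustment, standard error 0.0542, adjusted p = 0.7871). LIMK1, the kinase that inactivates cofilins, ranged from 4.46 to 5.55 FPKM with overlapping groups and a log2 fold change of −0.08 (limma with Benjamini-Hochberg adjustment, standard error 0.0902, adjusted p = 0.7906), which was −0.00046 without agomir library 1, its lowest value, and −0.13 without agomir library 2.

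TRIOBP encodes a protein that binds the exchange factor TRIO and bundles actin filaments. It was at 54.5, 55.1 and 55.9 FPKM across the agomir libraries against 45.01, 44.999 and 45.4 FPKM in the agomir NC libraries. The 3 values within each group lay close together and the groups were apart. Its higher level with the agomir was given in advance by the selection on its rise. The means were 55.2 ± 0.673 FPKM across the agomir libraries against 45.1 ± 0.216 FPKM in the agomir NC libraries (SD, n = 3 each), a ratio of 1.22 and a log2 fold change of 0.29, which ranged from 0.27 to 0.30 over the other settings and from 0.28 to 0.30 when a library was left out.

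TRIO, the exchange factor that TRIOBP binds, was at 23.7, 25.6 and 20.8 FPKM across the agomir libraries against 20.5, 19.6 and 20.6 FPKM in the agomir NC libraries. The agomir values were spread more widely than the agomir NC values, and agomir library 3 was only just above the highest agomir NC library. The log2 fold change was 0.20 (limma with Benjamini-Hochberg adjustment, standard error 0.0745, adjusted p = 0.3983). Its unadjusted p was under 0.05 in 12 of 16 other settings, and was above it without the variance trend and without agomir library 1, agomir library 2 or agomir NC library 2.

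The kinases ROCK1 and ROCK2, which phosphorylate myosin phosphatase and LIM kinases, were about equally abundant, from 29.4 to 32.7 FPKM and from 24.001 to 31.2 FPKM. For both the groups overlapped. The log2 fold change of ROCK1 was 0.026, and that of ROCK2 was 0.15 with agomir NC library 3 included and 0.058 without it.

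SRF, the transcription factor that drives many actin and contractile genes, was at 18.8, 17.5 and 17.1 FPKM across the agomir libraries against 16.95, 17.9 and 15.8 FPKM in the agomir NC libraries. The groups overlapped, with a log2 fold change of 0.076 (limma with Benjamini-Hochberg adjustment, standard error 0.0643, adjusted p = 0.7094), which was 0.03 without agomir NC library 3 and 0.12 without agomir NC library 2. Its coactivators MRTFA and MRTFB were read under other symbols and are not in the counts. MKL1, the former symbol of MRTFA, was at 16.5, 15.9 and 16.3 FPKM across the agomir libraries against 15.1, 15.6 and 14.6 FPKM in the agomir NC libraries. These values did not overlap, and the log2 fold change was 0.10 (limma with Benjamini-Hochberg adjustment, standard error 0.0546, adjusted p = 0.5396). MKL2, a synonym of MRTFB in RefSeq, was at 6.64, 6.37 and 6.39 FPKM across the agomir libraries against 6.86, 6.58 and 6.26 FPKM in the agomir NC libraries, with overlapping groups and a log2 fold change of −0.019.

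VIM, the intermediate filament protein of mesenchymal cells, was the most abundant gene of the list and was at 5156, 5412 and 5292 FPKM across the agomir libraries against 5373, 5509 and 5685 FPKM in the agomir NC libraries. Agomir library 2 lay above agomir NC library 1, so the groups overlapped, and the log2 fold change was −0.063 (limma with Benjamini-Hochberg adjustment, standard error 0.0427, adjusted p = 0.6279). DES, the intermediate filament of muscle, was below the filter and was at 0.313, 0.231 and 0.3501 FPKM across the agomir libraries against 0.208, 0.4604 and 0.1997 FPKM in the agomir NC libraries. Agomir NC library 2 held the highest value and agomir NC library 3 the lowest, and the same exact permutation test gave p = 0.9.

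**Figure D3:**
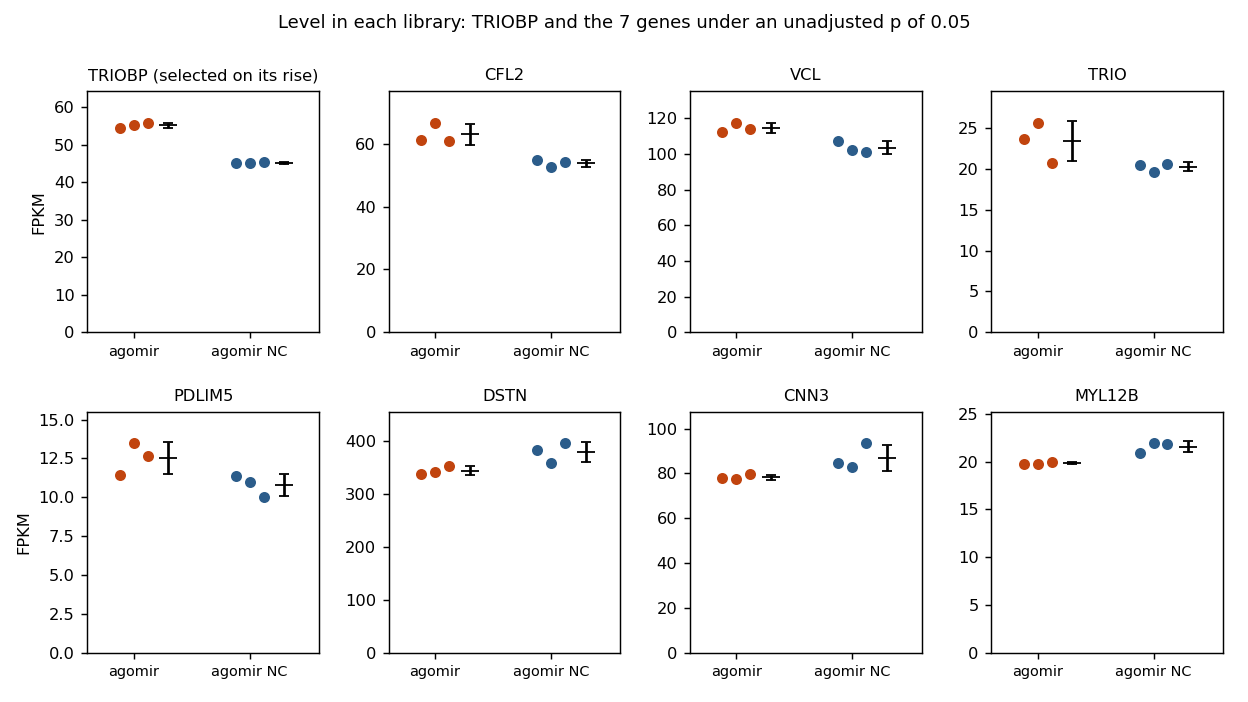
FPKM in each library (points) with the mean and SD of each group (bar, n = 3) for TRIOBP, selected on its rise, and for the 7 genes with an unadjusted p under 0.05; axes start at 0. For CFL2 the agomir libraries lie between 60.97 and 66.7 FPKM and the agomir NC libraries between 52.6 and 54.8 FPKM, and for DSTN between 338 and 353 FPKM and between 357 and 395 FPKM.

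A further 212 genes of the same pathways, of which 210 had a row and 168 were above the filter, were examined in the same way. None passed 0.05 after Benjamini-Hochberg adjustment of the limma p-values (lowest adjusted p 0.3098), 7 were higher with the agomir at an unadjusted p under 0.05 (4.17%, against 6.63% of all genes tested) and 8 lower (4.76%, against 4.31%). Their groups did not overlap in 26 genes that were higher (15.5%, against 10.9% of all genes) and in 16 that were lower (9.52%, against 6.36%), and the median log2 fold change was 0.028, against 0.013 over all genes.

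The Arp2/3 complex, which starts branched filaments, had 9 subunit genes tested, none under an unadjusted p of 0.05, with log2 fold changes from −0.0071 to 0.069. Of 12 genes of the WASP and WAVE promoters of nucleation, WASF3 was lower, at 2.09 ± 0.0134 FPKM across the agomir libraries against 2.53 ± 0.0967 FPKM in the agomir NC libraries (SD, n = 3 each), with an unadjusted p under 0.05 in 8 of 16 other settings and above it whenever a library was left out. Of 11 formins, which start and lengthen unbranched filaments, DIAPH2 and INF2 were higher. DIAPH2, a diaphanous-related formin, was at 5.46, 4.32 and 4.94 FPKM across the agomir libraries against 3.69, 4.02 and 3.57 FPKM in the agomir NC libraries. The groups did not overlap, and the log2 fold change of 0.34 (limma with Benjamini-Hochberg adjustment, standard error 0.0997, adjusted p = 0.3098) was under an unadjusted p of 0.05 in all 16 other settings. INF2, a formin that also severs filaments, was at 44.1 ± 0.174 FPKM across the agomir libraries against 39.8 ± 2.702 FPKM in the agomir NC libraries (SD, n = 3 each). The unadjusted p of INF2 was under 0.05 in 12 of 16 other settings, and its log2 fold change of 0.15 was 0.092 without agomir NC library 3, with a p above 0.05.

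Of 25 capping, severing and monomer-binding genes, SSH2, a phosphatase that reactivates cofilins, was higher at 4.36 ± 0.615 FPKM across the agomir libraries against 3.46 ± 0.483 FPKM in the agomir NC libraries (SD, n = 3 each), though the groups overlapped. Of 17 other crosslinkers and stress fibre genes, LIMA1, an actin-bundling LIM protein, was higher at 169 ± 5.17 FPKM across the agomir libraries against 158 ± 1.74 FPKM in the agomir NC libraries (SD, n = 3 each), and SMTN, encoding smoothelin, and NEXN, encoding the filament-binding nexilin, were lower. SMTN was at 21.6 ± 0.406 FPKM across the agomir libraries against 23.5 ± 0.429 FPKM in the agomir NC libraries and NEXN at 33.4 ± 1.05 FPKM across the agomir libraries against 36.4 ± 1.67 FPKM in the agomir NC libraries (SD, n = 3 each). Of 26 focal adhesion genes, EVL, an Ena/VASP protein that speeds filament growth, was lower at 38.9 ± 1.32 FPKM across the agomir libraries against 41.8 ± 0.859 FPKM in the agomir NC libraries (SD, n = 3 each). Of the 16 other settings, the unadjusted p was under 0.05 in 10 for SSH2, in 8 for LIMA1 and in 9 each for SMTN, NEXN and EVL.

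Of 10 other myosin and phosphatase genes, PPP1CB, the catalytic subunit of myosin phosphatase, was lower at 64.3 ± 2.79 FPKM across the agomir libraries against 69.1 ± 1.65 FPKM in the agomir NC libraries (SD, n = 3 each), and its unadjusted p was under 0.05 in 6 of 16 other settings. Of 16 other SRF cofactors and SRF target genes, ANKRD1 was higher and FOS lower, the former at 1.22, 1.06 and 1.28 FPKM across the agomir libraries against 1.04, 0.442 and 0.652 FPKM in the agomir NC libraries and the latter at 6.85 ± 0.544 FPKM across the agomir libraries against 8.01 ± 0.422 FPKM in the agomir NC libraries (SD, n = 3 each). Among 6 other intermediate filament genes, the nuclear lamins LMNB2 and LMNA lay on opposite sides. LMNB2 was higher at 9.63 ± 0.506 FPKM across the agomir libraries against 8.45 ± 0.593 FPKM in the agomir NC libraries and LMNA lower at 522 ± 7.28 FPKM across the agomir libraries against 564 ± 6.18 FPKM in the agomir NC libraries (SD, n = 3 each). The unadjusted p was under 0.05 in 13 of 16 other settings for FOS and for LMNA, in 10 for LMNB2, and in 11 of 15 for ANKRD1. Each gene named from these lists had an unadjusted p under 0.05 and an adjusted p of 0.3098 or more.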

How the data were processed

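RNA from 3 agomir and 3 agomir NC samples was sequenced. Per the labels, the reads were handled with fastp, HISAT2 and StringTie on the build ARS-UCD1.2 (no version or annotation is given in the sources used here), and the values the authors deposited are FPKM, 1 for each gene in each library. Ratios of 3191 low genes between libraries shared a 0.002-wide log2 bin in at most 11 genes, so whole reads were not recovered. Genes averaging 0.5 FPKM or more were put on the log2(FPKM + 0.5) scale and compared with limma 3.58.1 in R 4.3.3 (moderated two-sided test, variance trend, no block). Benjamini-Hochberg adjustment ran over all 12422 genes tested. The model was tested on simulated data whose changes were larger than those of the listed genes, so that test does not cover changes of their size. Genes below the filter were compared by an exact permutation test of the 20 labelings.

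Values in every library were given for TRIOBP, for the most abundant gene and the gene with the largest fold change of each role, and for genes with an unadjusted p under 0.05. Some results under this rule are left out, while their genes stay in the counts. Genes of the other pathway lists were named at that same p, and markers by abundance or at 0. The other values were chosen after they were seen. The genes and lists were chosen with earlier results of these data known. Alternatives were pseudocounts of 0.1 and 1, no filter or a mean of 1 FPKM, TPM, quantile normalization, median-ratio scaling, array weights, no variance trend, a replicate block and leaving out each library. MKL2 was matched through the RefSeq table of ARS-UCD2.0, whose coordinates were not used. The mature sequence of bta-miR-484 is not printed here.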

Additional observations from a re-analysis of the deposited data

How the results depend on the processing

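Over the 16 alternatives, no gene of the list other than TRIOBP, which was not tested, passed 0.05 after Benjamini-Hochberg adjustment of the limma p-values. No gene of the other pathway lists did so either. Of 911 log2 fold changes of single genes in these settings, 873 had the same sign as in the report and 38 changed sign. These include TRIOBP and the pathway genes named above, which were picked by their differences in these same libraries. Nothing is therefore read from this count. The number of genes higher with the agomir at an unadjusted p under 0.05 was 4 in the report. It was 7 after rescaling to TPM, where 8.12% of all genes tested were higher. Leaving out a library gave between 2 (without agomir library 2, 4.47% of all genes) and 7 (without agomir NC library 1, 6.68%). The number lower was 3 in the report, 5 after median-ratio scaling (5.54% of all genes) and 0 without the variance trend (3.94%). Leaving out a library gave between 1 (without agomir NC library 3, 3.08%) and 6 (without agomir NC library 2, 4.29%) lower. Over all genes tested, the 1 gene under an adjusted p of 0.05 became 0 with the replicate block, with no filter and without the variance trend, and between 0 (without agomir library 1) and 2 (without agomir NC library 3). With the replicate block 6 genes of the list were higher and 3 lower, against 5.94 and 4.2% of all genes. It is not stated whether equal replicate numbers mark paired samples. Samples with the same number had deviations from their group means that correlated at −0.0506, 0.0532 and 0.0387. Not every sample correlated best with its own number. With 3 samples in each group, such correlations cannot show whether the samples were paired. The median log2 fold change of the list, −0.019 in the report, was 0.018 under quantile normalization, −0.0032 after rescaling to TPM, −0.034 after median-ratio scaling, and between −0.030 (without agomir NC library 2) and 0.00076 (without agomir library 1) when a library was left out. Signs changed under quantile normalization for ACTB (0.012), ACTG1 (0.020), TPM1 (0.053), TPM3 (0.0027), TPM4 (0.015), TAGLN (0.025) and MYH10 (0.0015), under median-ratio scaling for FLNA (−0.0090), TAGLN2 (−0.014) and MYLK (−0.013), and in single cases elsewhere: the log2 fold change of FLNA was −0.000746 with array weights, and the log2 fold change of TPM1 was 0.00764 after rescaling to TPM. With a library left out, log2 fold changes crossed 0 for, among others, ACTG1 (−0.064 to 0.024), ACTG2 (−0.022 to 0.084), ACTN1 (−0.044 to 0.0020), FLNA (−0.061 to 0.040), TLN1 (−0.021 to 0.071), TPM1 (−0.043 to 0.013), TPM3 (−0.058 to 0.0053), CNN1 (−0.018 to 0.27), TAGLN2 (−0.026 to 0.041), MYH9 (−0.028 to 0.080), MYH10 (−0.077 to 0.047), MYLK (−0.028 to 0.040), PFN1 (−0.081 to 0.0040), ROCK1 (−0.0045 to 0.072) and MKL2 (−0.051 to 0.010). Without crossing 0, they differed from the report by more than 1.5 times in at least 1 such setting for ACTA2 (−0.10 to −0.018), ACTB (−0.056 to −0.016), ACTN4 (−0.09 to −0.0094), FLNC (0.07 to 0.23), ZYX (0.013 to 0.048), PDLIM7 (0.052 to 0.12), TPM2 (−0.12 to −0.059), TPM4 (−0.044 to −0.0016), CNN2 (−0.10 to −0.035), CNN3 (−0.18 to −0.094), TAGLN (−0.059 to −0.000033), LMOD1 (0.13 to 0.27), MYL6 (−0.17 to −0.055), MYL9 (−0.10 to −0.038), MYL12A (−0.10 to −0.034), CFL1 (−0.10 to −0.021), LIMK1 (−0.13 to −0.00046), TRIO (0.13 to 0.28), ROCK2 (0.058 to 0.23), SRF (0.03 to 0.12), VIM (−0.082 to −0.042) and INF2 (0.092 to 0.18), and in at least 1 of the other settings for ACTA2 (−0.065 to −0.024), ACTG2 (0.022 to 0.053), ACTN1 (−0.036 to −0.0052), ACTN4 (−0.056 to −0.025), ZYX (0.012 to 0.043), TLN1 (0.025 to 0.056), TPM2 (−0.11 to −0.052), CALD1 (0.0082 to 0.06), MYL6 (−0.12 to −0.033), MYL12A (−0.08 to −0.027), MYH9 (0.023 to 0.072), PFN1 (−0.064 to −0.0072), CFL1 (−0.084 to −0.0086), DSTN (−0.15 to −0.074), ROCK1 (0.011 to 0.042), SRF (0.048 to 0.093), VIM (−0.078 to −0.03), MKL2 (−0.042 to −0.005) and LMNA (−0.12 to −0.053). The cause of these changes was not tested. Depth is unknown, so counting error could not be weighed.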
